A study of Rattus norvegicus with 12 samples.

Results

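The genes described here are 8 transcripts of the rat kidney tubule: the organic anion transporters Slco1a1 and Slco1a6, the amino acid transporters Slc7a13 and Slc7a12, the meprin subunit Mep1b, the kidney androgen-regulated protein gene Kap, the channel-subunit gene Cacng5 and the aldo-keto reductase Akr1c12l1. They were taken by symbol from a count table of 32623 genes, and all 8 were found and passed the filter on low counts, as did 15856 genes in all. They were chosen by their raw counts in all 12 libraries. These were low in every library of homozygous Xdh mutants and, for all but Kap, uneven among the other libraries. Levels of the 8 genes are therefore described below with no test wherever a comparison involves those mutants.

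The data are 12 mRNA sequencing libraries of kidney cortex, all from males at 6 weeks of age. The groups were 4 homozygous mutants (HOMO, replicates 1 to 4), 4 heterozygotes (HET, replicates 1, 2, 4 and 5) and 4 wild-type littermates (WT, replicates 1 to 4). All 3 groups carry the strain label SS-Xdhem1Mcwi, a single mutant line of Xdh on the SS (Dahl salt-sensitive) background, and the labels give no treatment. Xdh encodes xanthine dehydrogenase, the enzyme that makes uric acid. The labels do not say that each library came from a separate animal, so p-values rest on the spread between libraries, part of which may be technical.

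Total counts per library were 22858907 to 36998378 in HOMO, 18995464 to 37023629 in HET and 28481944 to 36119168 in WT. Xdh itself had 61.7, 60.7, 230 and 57.6 counts per 1000000 TMM-scaled reads (CPM) in HOMO replicates 1, 2, 3 and 4. It had 182, 197, 140 and 158 CPM in the HET libraries, and 281, 380, 212 and 270 CPM in the WT libraries. The library labelled HOMO replicate 3 thus lay inside the WT range for the targeted gene. For the 8 genes and the gene lists, values with and without it are given below. Xdh fell in HOMO against WT, with a log2 fold change of -1.48 ± 0.43 (SE, edgeR quasi-likelihood test, adjusted p = 0.0101). It was not called in HOMO against HET (-0.73 ± 0.43, adjusted p = 0.151, edgeR) or in HET against WT (-0.75 ± 0.43). For the 8 genes, WT replicate 2 and HET replicate 5 were the lowest libraries of their groups and HET replicate 4 the highest of its group.

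As background, the proximal tubule begins with convoluted segments in the cortex and ends with a straight segment that runs down the medullary rays into the outer medulla. The straight segment takes up the last of the filtered peptides and cystine and secretes organic anions, and its brush border is rich in peptidases. In mice, several of its transcripts are higher in males and are raised by testosterone. Slco1a1, Slc7a13 and Kap are known from mouse kidney as such genes. No hormone level, castrated animal or female is among these samples, so a response to androgen was not examined here.

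Start-site sequences were searched for a short androgen-response motif. RefSeq promoter windows, 250 bases before to 50 bases after the gene's start on build GRCr8, were matched by symbol for 7 of the 8 genes (all but Slc7a13). Sequences are printed for 4 of them: for the neighbouring paralogues Slco1a1 and Slco1a6, for Slc7a12, and for Kap, which differs most from the others in its spread. All 4 hold the motif. Capitals mark the hexamer AGAACA or its reverse complement TGTTCT, which makes up each arm of an androgen response element. All 4 windows lie on the minus strand, at chr4:176681943-176682242 for Slco1a1, chr4:176838983-176839282 for Slco1a6, chr2:88868054-88868353 for Slc7a12 and chr4:168408983-168409282 for Kap, and are written 5′ to 3′ on the gene's strand.
Slco1a1: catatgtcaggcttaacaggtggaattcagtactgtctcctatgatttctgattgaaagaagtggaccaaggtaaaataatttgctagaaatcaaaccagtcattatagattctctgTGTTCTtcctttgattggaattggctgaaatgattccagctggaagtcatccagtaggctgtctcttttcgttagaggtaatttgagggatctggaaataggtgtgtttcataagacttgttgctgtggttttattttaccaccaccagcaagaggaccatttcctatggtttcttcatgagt
Slco1a6: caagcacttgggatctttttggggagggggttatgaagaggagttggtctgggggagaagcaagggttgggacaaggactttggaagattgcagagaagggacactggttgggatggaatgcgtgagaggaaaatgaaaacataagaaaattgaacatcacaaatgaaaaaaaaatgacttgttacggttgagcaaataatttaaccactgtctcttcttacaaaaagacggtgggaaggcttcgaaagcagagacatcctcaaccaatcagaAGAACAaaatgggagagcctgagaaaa
Slc7a12: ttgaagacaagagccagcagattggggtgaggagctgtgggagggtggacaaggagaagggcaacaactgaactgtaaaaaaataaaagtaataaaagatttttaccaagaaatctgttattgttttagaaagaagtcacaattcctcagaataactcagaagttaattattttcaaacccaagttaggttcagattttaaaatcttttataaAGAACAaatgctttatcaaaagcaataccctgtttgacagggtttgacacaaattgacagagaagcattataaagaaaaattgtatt
Kap: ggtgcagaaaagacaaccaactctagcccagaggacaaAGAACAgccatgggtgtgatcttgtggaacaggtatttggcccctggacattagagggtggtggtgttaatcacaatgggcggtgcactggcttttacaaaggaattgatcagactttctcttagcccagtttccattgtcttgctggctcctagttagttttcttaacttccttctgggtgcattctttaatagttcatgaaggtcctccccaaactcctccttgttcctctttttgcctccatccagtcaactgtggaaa

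The hexamer was present in 5 of the 7 windows, against 20.7% of all 33469 promoter windows searched on both strands. It began 212 bases before the start of Kap, 133 before that of Slco1a1 (opposite strand), 84 before that of Cacng5 (opposite strand), 37 before that of Slc7a12, and 23 bases after that of Slco1a6, and it was in neither Mep1b nor Akr1c12l1. The whole palindrome, AGAACA and TGTTCT with 3 bases between them, was in none of the 7 windows and in 0.0149% of all windows. A match of letters is a description and not evidence that a factor binds there.

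All 8 genes were lower in every HOMO library than in any HET or WT library. Over all genes tested, 32.2% had every HOMO library below every WT library and 31.7% had every HOMO library below every HET library, and 71.7% were called in HOMO against WT (edgeR, adjusted p under 0.05), 34.7% lower and 37.0% higher. In HOMO against HET 70.6% were called, 34.5% lower and 36.2% higher. The log2 fold changes of the 8 genes in HOMO against WT ran from -12.06 to -5.65 with a median of -7.84, beside a median of 0.04 over all genes tested. In HOMO against HET they ran from -11.55 to -5.00 with a median of -7.26, beside 0.04 over all genes. By size of fall against WT, Slco1a1 ranked 1, Cacng5 8, Kap 16, Slc7a12 17, Akr1c12l1 18, Slc7a13 32, Slco1a6 42 and Mep1b 74 among the 15856 genes. These figures restate the choice of the genes. The samples are bulk tissue, so fewer straight-segment cells and less RNA per cell cannot be told apart.

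**Figure D1:**
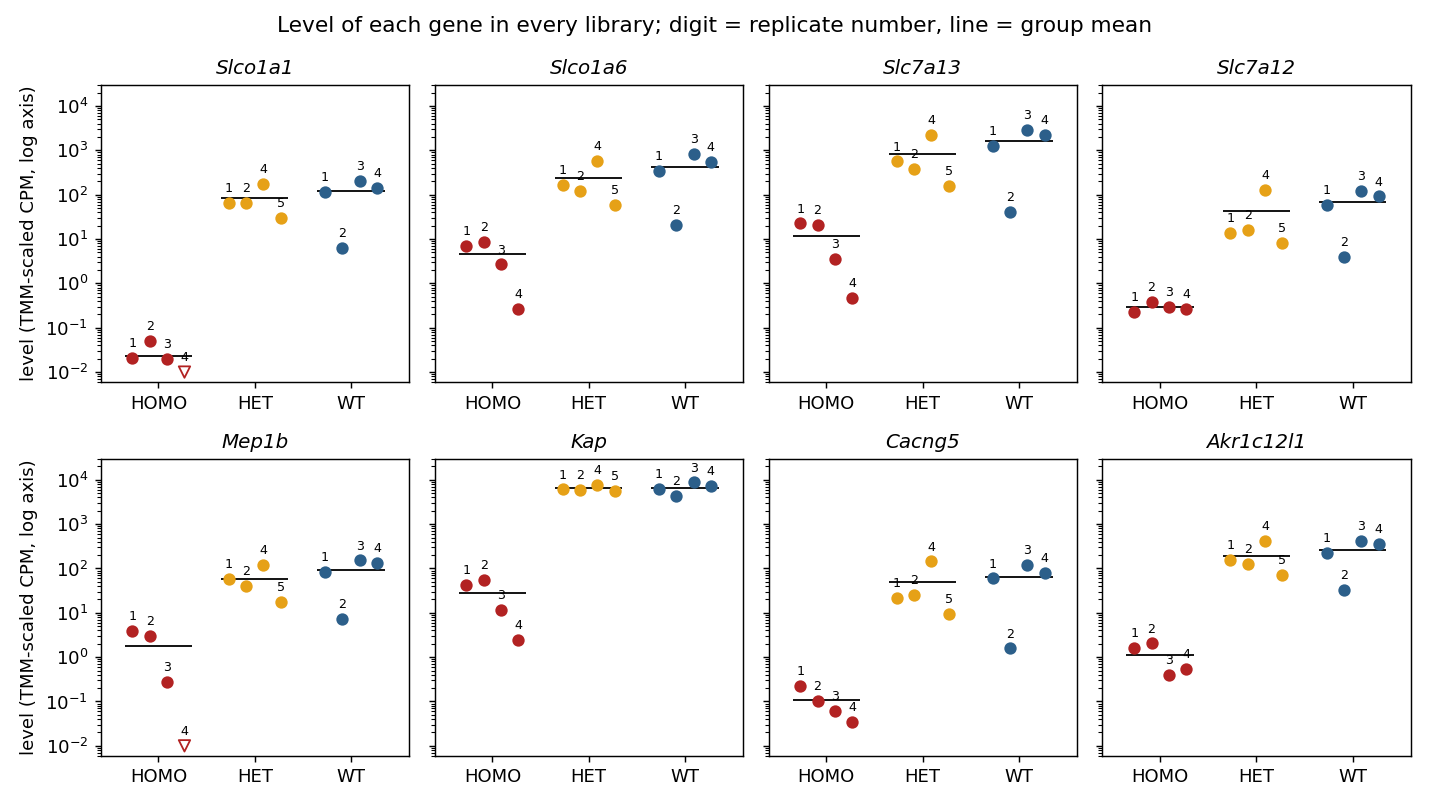
Level of each of the 8 genes (TMM-scaled CPM, log axis) in the 4 HOMO, 4 HET and 4 WT libraries, where digits are replicate numbers, lines are arithmetic group means and open triangles are libraries with no read, drawn at the foot of the axis. Every HOMO library lay below every HET and WT library for all 8 genes, and WT replicate 2 and HET replicate 5 were the lowest of their groups each time.

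Per kilobase of the listed gene length, mean HOMO levels were 39.3 CPM per kb for Kap, 5.80 for Slc7a13, 1.86 for Slco1a6, 0.935 for Akr1c12l1, 0.758 for Mep1b, 0.169 for Slc7a12, 0.0421 for Cacng5 and 0.0101 for Slco1a1. Of neighbours in that order, Slc7a12 and Cacng5 alone had HOMO ranges that did not overlap. In HET the means were 9100 for Kap, 411 for Slc7a13, 156 for Akr1c12l1, 95 for Slco1a6, 36.9 for Slco1a1, 24.9 for Mep1b, 24.3 for Slc7a12 and 20.1 for Cacng5, and the HET ranges overlapped for all neighbours except Kap and Slc7a13. WT levels were highest for Kap, at a mean of 9510 CPM per kb, followed by Slc7a13 at 795, Akr1c12l1 at 213, Slco1a6 at 174, Slco1a1 at 52.6, Slc7a12 at 39.7, Mep1b at 39.3 and Cacng5 at 26.3. The lowest WT library for Kap (6250 CPM per kb) was above the highest for Slc7a13 (1440 CPM per kb). Every other pair of neighbours in the WT order had overlapping ranges. Slco1a1 was thus in the middle of the order in HET and WT and last in HOMO.

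Slco1a1 and Slco1a6 encode organic anion transporting polypeptides of the OATP1A group, which carry steroid conjugates and other organic anions across the tubule's membranes. They are neighbouring paralogues on chromosome 4, with listed starts at 176158640 (Slco1a1, ENSRNOG00000036984) and 176345671 (Slco1a6, ENSRNOG00000030894) on Rnor_6.0. How reads that fit both were counted is not given in the sources used here, so their split is uncertain. Slco1a1 had 0.0206, 0.0504, 0.0200 and 0 CPM in HOMO replicates 1 to 4. It had 64.8, 65.0, 173 and 29.9 CPM in HET replicates 1, 2, 4 and 5, and 118, 6.22, 206 and 144 CPM in WT replicates 1 to 4. The transcript was nearly lost in HOMO, with 1, 2, 1 and 0 reads, while its level in WT replicate 2 was far below the other WT libraries. Summed and scaled over libraries, it was 5130 times higher in WT than in HOMO (95% exact interval 2000 to 18800) and 3530 times higher in HET than in HOMO (1380 to 13000). These intervals cover counting error only. The fitted log2 fold change of -12.06 ± 1.59 (SE) against WT depends on the fit's prior count at such depth, and a count of 0 in HOMO replicate 4 allows up to 0.102 CPM (a floor of 3 counts).

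Slco1a6 kept a measurable residue. It had 7.02, 8.47, 2.68 and 0.271 CPM in the 4 HOMO libraries, against 168, 122, 592 and 60.2 CPM in HET and 342, 20.5, 821 and 540 CPM in WT. The lowest WT library was 2.42 times the highest HOMO library, a much narrower gap than the 123 times of Slco1a1. Its mean in HOMO came to 1.07% of that in WT. The log2 fold change was -6.53 ± 1.37 against WT and -5.65 ± 1.32 against HET, or -4.65 against HET without HET replicate 4.

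The other members of the SLCO transporter family did not move together in HOMO. Of 7 further family genes tested, 4 were called higher and 3 lower against WT (edgeR, adjusted p under 0.05), with a median log2 fold change of 0.99. Slco4a1, a carrier of thyroid hormone and prostaglandins, rose by 3.59 ± 0.23 (adjusted p = 2.48e-08, edgeR), with 17.3 ± 5.28 CPM in HOMO and 1.43 ± 0.207 CPM in WT (SD, n = 4 each). Slco1a4, the other OATP1A gene tested, was called higher at a low level (2.49 ± 1.01, adjusted p = 0.0441, edgeR), with 6.63, 6.13, 0.360 and 0.0678 CPM in HOMO and 0.635, 0.127, 0.832 and 0.724 CPM in WT. HOMO replicates 1 and 2 alone were above the WT libraries, and with 1 of them left out the list had 3 higher calls. Slco4c1, a basolateral transporter of the proximal tubule, fell by 4.03 on the log2 scale (SE 0.89, adjusted p = 0.00215, edgeR), with 2.11 ± 0.526 CPM in HOMO and 34.5 ± 24.2 CPM in WT. Slco2a1 (-0.88 ± 0.12), Slco3a1 (0.99 ± 0.13), Slco2b1 (1.01 ± 0.24) and Slco1b2 (-5.32 ± 1.0), the last at under 1 CPM in each group, made up the rest.

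Slc7a13 (ENSRNOG00000024903, chromosome 5, listed start 33784715, Rnor_6.0) encodes a light chain that carries aspartate, glutamate and cystine in the straight segment. The protein pairs with the heavy chain rBAT, the product of Slc3a1. It had 22.6, 20.8, 3.58 and 0.474 CPM in the HOMO libraries, against 563, 389, 2260 and 155 CPM in HET and 1240, 40.5, 2950 and 2280 CPM in WT. Here the groups came closest to meeting: WT replicate 2 was 1.79 times the highest HOMO library, although the mean in HOMO was 0.729% of that in WT. The log2 fold change was -7.09 ± 1.66 against WT and -6.14 ± 1.59 against HET, or -4.96 against HET without HET replicate 4.

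Slc7a12 (ENSRNOG00000033830, chromosome 2, listed start 88559702, Rnor_6.0) encodes a relative known from mouse as the small neutral amino acid transporter Asc-2. It had 0.227, 0.378, 0.300 and 0.271 CPM in the HOMO libraries, against 13.5, 16.3, 131 and 8.15 CPM in HET and 58.9, 3.98, 122 and 91.8 CPM in WT. The HOMO libraries lay close together for this gene, but at 11, 15, 15 and 8 reads, where counting error is large. HET replicate 4 was above every WT library. Its log2 fold change was -7.86 ± 1.5 against WT and -7.16 ± 1.49 against HET, the one against HET becoming -5.43 without HET replicate 4.

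Partner subunits of this transporter family fell, and other relatives moved in both directions. Slc3a1 (rBAT) fell by 3.51 on the log2 scale (SE 0.32, adjusted p = 9.6e-07, edgeR), with 246 ± 72.7 CPM in HOMO and 2820 ± 935 CPM in WT (SD, n = 4 each). Slc3a2, the heavy chain 4F2hc of most other light chains, fell by 1.38 (SE 0.11, adjusted p = 1.82e-07, edgeR). Of the 8 further SLC7 and SLC3 genes tested, 5 were called lower and 3 higher, with a median of -1.32. The lower ones included Slc7a9, the light chain that carries cystine in earlier segments (-1.72 ± 0.14), and the higher ones were Slc7a6 (1.92 ± 0.11), Slc7a5 (1.48 ± 0.19) and Slc7a11 (5.17 ± 0.58), the cystine and glutamate exchanger.

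Mep1b (ENSRNOG00000049345, chromosome 18, listed start 15063079, Rnor_6.0) encodes the beta subunit of meprin, a brush border metalloprotease that is abundant in rodent proximal tubule. It had 3.90, 3.03, 0.280 and 0 CPM in the HOMO libraries, against 57.9, 41.0, 120 and 18.0 CPM in HET and 83.9, 7.15, 152 and 131 CPM in WT. HOMO replicates 1 and 2 kept some of the transcript, and HOMO replicate 4 had no read. The log2 fold change was -5.65 ± 1.24 against WT and -5.00 ± 1.21 against HET. With limma voom these were -6.65 and -6.37, and without HOMO replicate 1 they were -6.37 and -5.72.

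Mep1a, which encodes the alpha subunit of meprin, fell by 4.35 on the log2 scale (SE 0.28, adjusted p = 4.05e-08, edgeR), with 26.9 ± 8.57 CPM in HOMO and 547 ± 118 CPM in WT. Its WT libraries varied far less than those of Mep1b: the pooled SD of log2 CPM within WT and HET was 0.314 for Mep1a and 1.66 for Mep1b. Of 9 other brush border peptidases tested, Mep1a included, 8 were called lower and 1 higher, with a median of -2.41, and 6 were called lower when scaled by library totals alone. The gene called higher was Ace, which encodes the angiotensin-converting enzyme (2.90 ± 0.44, adjusted p = 9.77e-05, edgeR).

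Kap (ENSRNOG00000005858, chromosome 4, listed start 167549929, Rnor_6.0) encodes a small secreted protein that is one of the most abundant androgen-responsive transcripts of mouse proximal tubule. It had 42.0, 54.6, 11.8 and 2.44 CPM in the HOMO libraries, against 6100, 6000, 7820 and 5740 CPM in HET and 6360, 4400, 8730 and 7320 CPM in WT. The HET and WT libraries were close together, whereas the HOMO libraries differed 22.4 times from lowest to highest. Kap alone took 0.000315% to 0.00736% of all counts in HOMO, against 0.493% to 0.685% in HET and 0.365% to 0.758% in WT. Its log2 fold change was -7.92 ± 0.90 against WT and -7.85 ± 0.90 against HET.

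Genes reported elsewhere as androgen-raised or male-biased in rodent kidney moved in both directions. Of 11 such genes tested beside the 8, 7 were called lower in HOMO, 2 higher and 2 were not called, with a median log2 fold change of -2.88. Cyp4a2, a fatty acid hydroxylase, fell by 7.14 (SE 0.43, adjusted p = 2.9e-08, edgeR), with 17.7 ± 6.01 CPM in HOMO and 2500 ± 758 CPM in WT. The genes called higher were Gusb (0.93 ± 0.07), the beta-glucuronidase long used as an androgen response gene in mice, and Cyp7b1 (1.38 ± 0.17), a steroid hydroxylase. Without HOMO replicate 1, 8 of the 11 were called lower. Agt had 50.5, 5.80, 1.70 and 0.203 CPM in HOMO replicates 1 to 4 and 37.9, 3.26, 52.2 and 42.8 CPM in WT replicates 1 to 4, so that HOMO replicate 1 was within the WT range and above all but 1 WT library. The genes not called were Agt (-1.21 ± 1.27, adjusted p = 0.411, edgeR) and Fkbp5 (-0.42 ± 0.38, adjusted p = 0.342, edgeR), a common target of steroid receptors. Of 3 genes reported as female-biased, Slc22a7 and Prlr were called lower and Abcc3 higher.

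Of 13 tested genes for hormone receptors (steroid, prolactin and growth hormone) and steroid enzymes, 12 were called lower and 1 was not called, with a median of -1.33. Scaled by library totals alone, 9 were called lower and 1 higher. Receptors that fell included those of oestrogen (Esr1, -3.90 ± 0.37), prolactin (Prlr, -4.80 ± 0.74), growth hormone (Ghr, -2.41 ± 0.29) and mineralocorticoids (Nr3c2, -0.69 ± 0.10). Srd5a1, a steroid 5-alpha reductase, was the gene not called (0.12 ± 0.14, adjusted p = 0.456, edgeR).

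Akr1c12l1 (ENSRNOG00000050243, chromosome 17, listed start 69588085, Rnor_6.0) belongs to the aldo-keto reductases 1C, enzymes that reduce keto groups of steroids and other carbonyls. It had 1.59, 2.04, 0.400 and 0.542 CPM in the HOMO libraries, against 154, 126, 413 and 70.8 CPM in HET and 226, 32.7, 428 and 354 CPM in WT. The lowest WT library was 16.0 times the highest HOMO library, and the mean in HOMO was 0.440% of that in WT. The log2 fold change was -7.81 ± 1.06 against WT and -7.36 ± 1.04 against HET. Reads of this family can fit several near-identical copies, so levels of its single members are uncertain.

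The Akr1c family did not fall as a whole. Of 7 other Akr1c genes tested, 2 were called lower, 2 higher and 3 were not called. Akr1c1 (-3.68 ± 0.30, adjusted p = 4.51e-07, edgeR) and Akr1c13 (-4.20 ± 0.45, adjusted p = 4.9e-06, edgeR) fell, while Akr1c3 (3.81 ± 0.83, adjusted p = 0.00113, edgeR) and Akr1c14 (2.97 ± 0.71, adjusted p = 0.00296, edgeR) rose. Akr1c12 (-0.88 ± 0.40, adjusted p = 0.0616, edgeR), Akr1c15 (1.48 ± 0.97, adjusted p = 0.191, edgeR) and Akr1c19 (-0.57 ± 0.27, adjusted p = 0.0812, edgeR) did not pass the threshold. Without WT replicate 2, 4 genes of the family were called lower. The family median of -0.57 turned to 0.04 when libraries were scaled by their totals alone.

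Cacng5 (ENSRNOG00000003288, chromosome 10, listed start 96123397, Rnor_6.0) encodes a transmembrane protein of the calcium channel gamma subunit family, which is best known from brain as an auxiliary subunit of AMPA receptors. It had 0.227, 0.101, 0.0601 and 0.0339 CPM in the HOMO libraries, against 22.1, 25.6, 145 and 9.32 CPM in HET and 59.5, 1.57, 122 and 80.7 CPM in WT. WT replicate 2 was 1.94% of the median of the other WT libraries, and HET replicate 4 was above every WT library. The HOMO libraries held 19 reads in all, and the log2 fold change was -9.14 ± 1.73 against WT and -8.76 ± 1.72 against HET, the one against HET becoming -7.37 without HET replicate 4. Cacng4 was the only one of 7 relatives that passed the filter on low counts, and it was not called (-0.20 ± 0.41, adjusted p = 0.677, edgeR) at 0.762 ± 0.248 CPM in HOMO and 0.862 ± 0.473 CPM in WT.

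None of the 8 genes was called different between HET and WT, the comparison with no HOMO animals on either side (edgeR, adjusted p = 1 for each). Over all genes tested, 0.0% were called in that comparison by edgeR, 318 genes had an unadjusted p under 0.05, and the authors' deposited table called 1 of 12759 genes. The log2 fold changes in HET against WT were -0.51 ± 0.79 for Slco1a1, -0.87 ± 1.07 for Slco1a6, -0.95 ± 1.28 for Slc7a13 and -0.71 ± 1.0 for Slc7a12. For Mep1b, Kap, Cacng5 and Akr1c12l1 they were -0.65 ± 0.98, -0.06 ± 0.66, -0.38 ± 1.03 and -0.45 ± 0.76. All 8 estimates were below 0, with a median of -0.58 beside 0.00172 over all genes, but each standard error exceeded the estimate. HET replicate 4 bore on their size: without it they were -1.15 for Slco1a1, -1.88 for Slco1a6, -2.14 for Slc7a13, -2.44 for Slc7a12, -1.25 for Mep1b, -0.17 for Kap, -1.78 for Cacng5 and -1.15 for Akr1c12l1, none of them called. The highest estimate with any single library left out was 0.09 for both Kap and Cacng5. These errors leave room for differences of several fold, so no absence of difference is shown. The fit took its spread from all libraries, HOMO included. For Kap the SD of log2 CPM was 2.04 in HOMO, 0.201 in HET and 0.419 in WT. The standard error of 0.66 for Kap thus draws on the HOMO spread too. For 6 of the 8 genes, all HET libraries lay within the WT range, and for Slc7a12 and Cacng5 HET replicate 4 lay above it.

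Most of the 8 genes varied widely between libraries of the same genotype. The pooled SD of log2 CPM within WT and within HET was 2.34 for Cacng5, 2.33 for Slc7a13, 2.03 for Slc7a12, 1.96 for Slco1a6, 1.80 for Slco1a1, 1.66 for Mep1b and 1.42 for Akr1c12l1. Over all genes tested the median was 0.186 and the 95th percentile 0.779, and 2.36% of genes reached 1 or more. Kap differed from the other members, with a pooled SD of 0.33. This spread was part of the choice of the genes and carries no test. Among genes within 0.5 of the same average log2 CPM, 0 of 108 had a larger SD than Slc7a13 and 0 of 2695 a larger one than Cacng5, while 8 of 2499 exceeded Mep1b and 2 of 10 exceeded Kap.

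**Figure D2:**
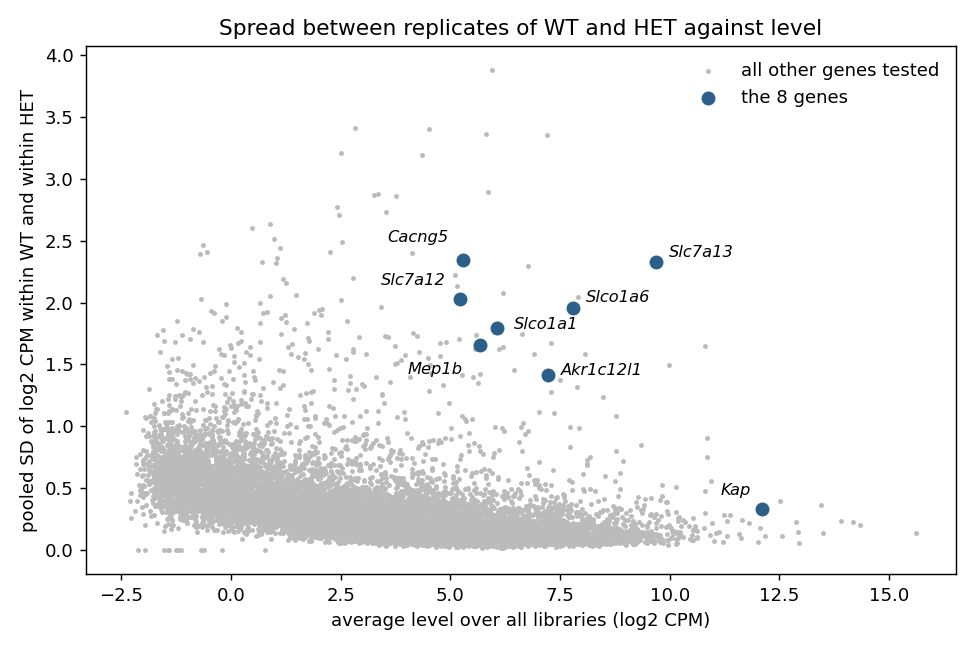
Pooled SD of log2 CPM within WT and within HET (vertical axis) against average log2 CPM over all libraries (horizontal axis), with the 8 genes in blue and every other gene tested in grey. Of the 8 genes, 7 lie between 1.42 and 2.34, well above the bulk of genes of their level, and Kap lies at 0.33.

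From the lowest to the highest WT library the levels differed 77.6 times for Cacng5, 72.8 for Slc7a13, 40 for Slco1a6, 33.1 for Slco1a1, 30.6 for Slc7a12, 21.2 for Mep1b, 13.1 for Akr1c12l1 and 1.98 for Kap. Among HET libraries the span was smaller for each of them, at 16.1 for Slc7a12, 15.5 for Cacng5, 14.6 for Slc7a13, 9.82 for Slco1a6, 6.70 for Mep1b, 5.82 for Akr1c12l1, 5.77 for Slco1a1 and 1.36 for Kap. WT replicate 2 accounted for much of the WT span. In that library Slc7a13 was at 1.77% of the median of the other 3 WT libraries, Slco1a6 at 3.8%, Slco1a1 at 4.32%, Slc7a12 at 4.33%, Mep1b at 5.47%, Akr1c12l1 at 9.24% and Kap at 60.1%. HET replicate 5 lay at 27.6% (Slc7a13) to 50.1% (Slc7a12) of the median of the other HET libraries, and at 94.1% for Kap. Without WT replicate 2 the pooled SD was 0.79 for Slco1a1, 1.07 for Slco1a6, 1.22 for Slc7a13, 1.30 for Slc7a12, 0.86 for Mep1b, 0.22 for Kap, 1.23 for Cacng5 and 0.82 for Akr1c12l1. These remained above the 0.779 that marks the 95th percentile of all genes with every library in, except for Kap. Without HET replicate 5 as well, Slco1a1 and Mep1b (0.64 each) and Akr1c12l1 (0.73) also lay below it.

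The WT libraries took the same order for each gene, and the HET extremes were the same. In all 8 genes WT replicate 2 was lowest, followed by replicates 1, 4 and 3, and HET replicate 5 was lowest and HET replicate 4 highest. Over all genes tested, 3.10% had both features and 1.37% had both turned round. The order is that of the genes chosen, so it carries no test. In HOMO, replicate 4 was lowest for 6 of the 8 genes, and replicate 2 was highest for 5 and replicate 1 for the other 3.

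Across the 28 pairs of the 8 genes, Pearson's r of log2 CPM minus the group mean over the 8 WT and HET libraries was 0.939 to 0.999 (median 0.984), and Spearman's rho was 0.952 to 1.0. Without the 2 libraries farthest from the median, r was 0.887 to 0.995, the lowest being that of Slc7a12 with Kap. These libraries share their depth and scaling across genes, and the values are descriptions. Such likeness was not rare: between 294 and 392 of 12937 genes whose log2 CPM averaged 1 or more had r of at least 0.9 with a given one of the 8, and between 192 and 252 had r of -0.9 or below. For Slc7a13 the closest genes outside the 8 were Etnppl, an ethanolamine-phosphate lyase (r = 0.9997), and the unnamed gene AABR07030091.1 (r = 0.9997), and for Slco1a6 they were Pamr1 (r = 0.9997) and Etnppl (r = 0.9994). Those of Slco1a1 were Hnmt, the histamine methyltransferase (r = 0.9936), and Gucy1b2, a guanylate cyclase subunit (r = 0.9931), while Cacng5 was closest to Gucy1b2 (r = 0.9971) and the secreted trefoil peptide Tff3 (r = 0.9965). Slc7a12 was closest to Slc5a10, a sugar transporter (r = 0.9937), and Ggct (r = 0.9927), and Mep1b to AABR07030091.1 (r = 0.9969) and Ost4 (r = 0.9969). For Kap they were Slc2a13 (r = 0.9933) and Sfn (r = 0.9907), and for Akr1c12l1 Ppic (r = 0.9984) and AABR07001025.1 (r = 0.9983). All r were over n = 8 libraries.

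Of the 13 distinct genes named as closest, 10 were called lower in HOMO against WT, 1 higher, and 2 were not called. Against WT, Hnmt (-7.32 ± 1.54, adjusted p = 0.00169), Etnppl (-5.98 ± 1.35, adjusted p = 0.00261) and Tff3 (-5.18 ± 1.2, adjusted p = 0.00309, edgeR) fell. Pamr1, with r of 0.9997 to Slco1a6, was not called (0.22 ± 0.63, adjusted p = 0.773, edgeR). It had 38.0, 32, 16.4 and 23.7 CPM in HOMO, against 14.6, 11.6, 33.0 and 7.17 CPM in HET and 23.1, 3.47, 39.2 and 29.0 CPM in WT. Its HOMO libraries thus lay within the WT range. Ost4 was not called either (0.14 ± 0.14, adjusted p = 0.368, edgeR), and Sfn, which encodes the 14-3-3 protein sigma, rose by 5.59 ± 0.36 (adjusted p = 5.18e-08, edgeR).

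Other straight-segment genes often had the same order of libraries. Of 11 tested, 6 had the full order in WT and the same extremes in HET, namely Slc3a1, Slc6a18, Slc15a2, Slc22a7, Ggt1 and Atp11a. Of 12 convoluted-segment genes none had it, and 3 (Slc5a2, Slc34a3 and Slc7a8) had both turned round. These genes are named because they met this criterion, after their values were seen. WT replicate 2 was the lowest WT library for 8 of the 11 straight-segment genes and the highest for all 12 convoluted-segment genes. Summed over the list, straight-segment genes had 6486, 5341, 9176 and 7767 CPM in WT replicates 1 to 4, and convoluted-segment genes had 14450, 17980, 12980 and 13320 CPM. In HET the contrast was weaker. HET replicate 5 was the lowest HET library for 9 of the 11 straight-segment genes, but the highest for only 5 of the 12 convoluted-segment genes. Sums in HET replicates 1, 2, 4 and 5 were 5642, 5647, 8486 and 4870 CPM for the straight segment and 15440, 15460, 15500 and 15750 CPM for the convoluted segment. The 8 genes thus ran with the straight-segment list, but their spread was part of their choice and no test was made of it. Of the other lists, 6 of 9 brush border peptidases (Mep1a, Mme, Anpep, Dpp4 and Ggt1 among them) and 4 of 11 androgen-raised or male-biased genes (Odc1, Cyp4a8, Agt and Slc22a2) had the order.

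**Figure D3:**
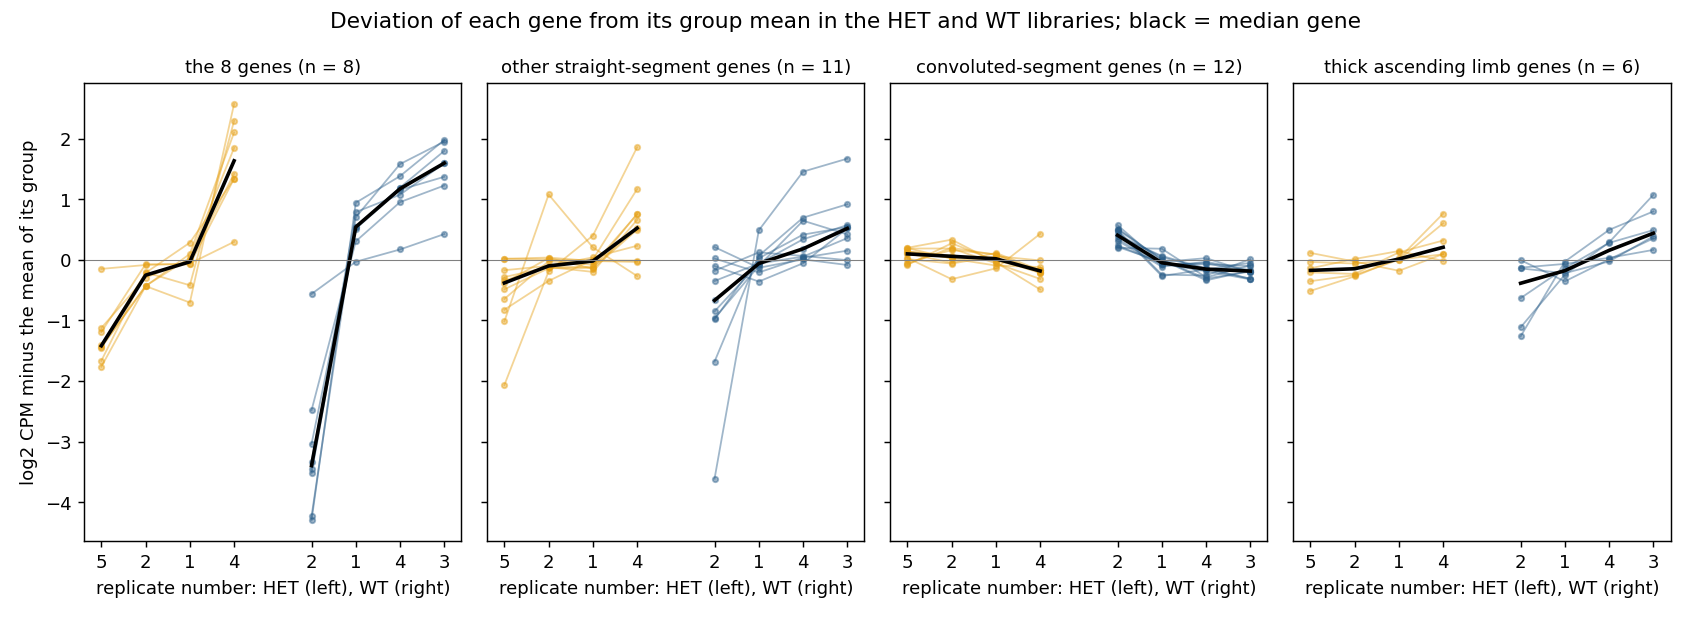
Log2 CPM minus the mean of its group for each gene (thin lines; black line, median gene) in the HET (orange) and WT (blue) libraries, in panels for the 8 genes, 11 other straight-segment genes, 12 convoluted-segment genes and 6 thick ascending limb genes. Libraries are set in the order found for the 8 genes, with HET replicate 5 and WT replicate 2 leftmost; the straight-segment genes deviate less, and the convoluted-segment genes have WT replicate 2 highest.

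The summed thick ascending limb markers also had this order. The thick ascending limb, which lies beside the straight segment in the medullary rays and outer medulla, is marked by Umod, Slc12a1, Cldn16, Egf, Kcnj1 and Ptger3, all detected in each library. Their summed level was 3077, 2571, 4755 and 2272 CPM in HET replicates 1, 2, 4 and 5, and 3307, 1742, 6061 and 4659 CPM in WT replicates 1 to 4. That is the order of the 8 genes in WT, with the same extremes in HET, and Umod and Slc12a1 made up most of the sum. WT replicate 2 was the lowest WT library for 4 of the 6 markers and HET replicate 5 the lowest HET library for 3 of the 6, and 2 of the 6, Umod and Slc12a1, had the order in full. The markers' part in the spread of the 8 genes was not tested. Markers of podocytes, which lie in the cortex alone, summed to 496, 609, 435 and 705 CPM in HET replicates 1, 2, 4 and 5 and to 573, 451, 360 and 404 CPM in WT replicates 1 to 4. HET replicate 5 was thus highest and HET replicate 4 lowest, and in WT replicate 3 was lowest and replicate 1, not 2, highest. Collecting duct markers summed to 887 to 1198 CPM in HET and 1035 to 1225 CPM in WT, with WT replicate 2 highest. Markers of the thin limb and inner medulla were low, at 40.3, 33.4, 31.0 and 34.4 CPM in HET replicates 1, 2, 4 and 5 and 34.96, 31.9, 50.2 and 41.5 CPM in WT replicates 1 to 4, which is the order of the 8 genes in WT but not in HET. The share of counts from the mitochondrial genome was 12.9% to 18.6% in HET, highest in replicate 5, and 14.4% to 17.0% in WT, highest in replicate 2, and its part was not tested either.

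Against WT, most listed genes of both proximal tubule segments were lower in HOMO, beside 34.7% called lower over all genes tested. Of the 11 further straight-segment genes, 10 were called lower and 1 higher (edgeR, adjusted p under 0.05), with a median log2 fold change of -2.48. All 12 convoluted-segment genes were called lower, with a median of -2.78. Slc22a7, the anion transporter OAT2, fell by 6.30 (SE 1.27, adjusted p = 0.00106, edgeR), with 0.124 ± 0.115 CPM in HOMO and 10.5 ± 7.98 CPM in WT. The gene called higher was Cyp7b1. The 8 genes were chosen for their fall, so the distance between their median and these medians is no result about them.

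**Figure D4:**
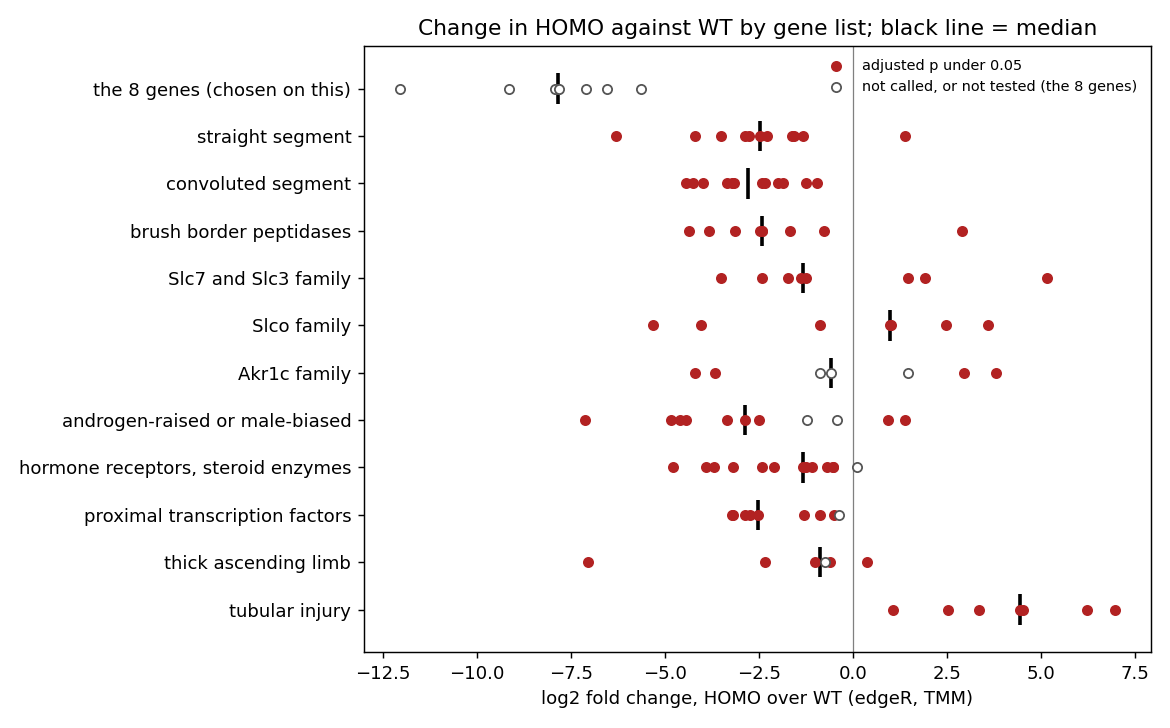
Log2 fold change in HOMO over WT for the genes of each list (points; filled red, edgeR adjusted p under 0.05; open, not called, or not tested in the case of the 8 genes), with a black line at the list's median. Medians were -7.84 for the 8 genes, -2.48 for other straight-segment genes, -2.78 for convoluted-segment genes, -0.57 for the Akr1c family and 4.44 for injury markers.

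Transcription factors of the proximal tubule were lower in HOMO as well, 8 of 9 tested being called (6 of 9 when scaled by library totals alone), with a median of -2.53. Hnf4a fell by 3.18 on the log2 scale (SE 0.14, adjusted p = 9.01e-10, edgeR), with 122 ± 24.1 CPM in HOMO and 1100 ± 97.6 CPM in WT. None of the 9 had the order of libraries seen in the 8 genes within WT and HET, where Hnf4a had a pooled SD of 0.138.

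The fall of the 8 genes came together with large differences in markers of other cells and of injury. Injury markers of the tubule, 7 of 7 called higher, summed to 13200 to 16940 CPM in HOMO, 521 to 684 CPM in HET and 574 to 950 CPM in WT. Macrophage markers, 5 of 5 called higher, summed to 1453 to 2074 CPM in HOMO, 232 to 274 CPM in HET and 189 to 294 CPM in WT. Fibroblast markers, 4 of 4 called higher, summed to 3160 to 6334 CPM in HOMO, 368 to 664 CPM in HET and 463 to 699 CPM in WT. No marker of these 3 lists was at 0 in every library. Thick ascending limb markers, 4 of 6 lower and 1 higher, summed to 508 to 1455 CPM in HOMO, 2272 to 4755 CPM in HET and 1742 to 6061 CPM in WT. Collecting duct markers, 5 of 6 lower (2 of 6 when libraries were scaled by their totals alone), summed to 428 to 812 CPM in HOMO, against 887 to 1198 CPM in HET and 1035 to 1225 CPM in WT. Podocyte markers, 3 of 4 lower and 1 higher, summed to 171 to 301 CPM in HOMO, against 435 to 705 CPM in HET and 360 to 573 CPM in WT. Thin limb and inner medulla markers, 2 of 4 tested called higher, summed to 127 to 163 CPM in HOMO. The mitochondrial share was 5.97% to 6.75% in HOMO. Their part in the fall of the 8 genes was not tested.

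What was left of the transcripts in HOMO differed between libraries. The 8 genes together took 0.0104%, 0.0121%, 0.00258% and 0.000521% of the counts of HOMO replicates 1, 2, 3 and 4, against 0.523% to 1.02% in HET and 0.375% to 1.17% in WT. The highest HOMO library was 47.7 times the lowest for Slc7a13 and 31.3 times for Slco1a6, but 1.67 times for Slc7a12. Slc7a12 had only 8 to 15 reads in each HOMO library, so counting error is large there. The other straight-segment genes summed to 1533, 1643, 1359 and 1203 CPM in the same libraries, a far smaller range in the same order as Kap. The library labelled HOMO replicate 3, whose Xdh level was high, was second lowest in HOMO for 6 of the 8 genes. Without it the log2 fold changes against WT were -11.97 for Slco1a1, -6.33 for Slco1a6, -6.79 for Slc7a13, -7.88 for Slc7a12, -5.27 for Mep1b, -7.67 for Kap, -8.90 for Cacng5 and -7.50 for Akr1c12l1. Against HET they ran from -11.46 to -4.62 without that library. The list counts given above were at most 1 higher or lower without it: 10 of 11 straight-segment and 12 of 12 convoluted-segment genes were called lower, and the higher call in the thick ascending limb list, Ptger3, was lost.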

How the data were processed

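The authors deposited raw read counts per gene for 32623 Ensembl genes in 12 libraries, which were used for every test here. The authors' tables of the 3 comparisons also hold RPKM values, which matched the count over gene length and library total with a median deviation of 0.0416%, and log2 fold changes and FDR-adjusted p-values, used only where the deposited table is named. Per the labels' protocols, the kit was a stranded mRNA kit and RNA came from frozen tissue by Trizol. The submitters' processing notes name Rnor_6.0 and edgeR 3.8.6 without a role. The sources used here give neither aligner nor counter, annotation or strand setting, so overlapping genes, antisense genes and near-identical paralogues are uncertain.

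Counts were filtered with filterByExpr (minimum count 10, minimum total 15; 15856 genes kept), scaled by TMM and fitted with edgeR 4.0.16 (R 4.3.3) in 1 quasi-likelihood model of all 12 libraries, with Benjamini-Hochberg adjustment over all genes at 0.05. The SE of an edgeR log2 fold change was worked back from the test, as its absolute value over the square root of the F statistic. At very low counts it is approximate. CPM are counts per 1000000 TMM-scaled reads, and log2 CPM used a prior count of 2. Alternatives were other scalings and filters, DESeq2 1.42.0, limma voom 3.58.1, a replicate block, single comparisons and leaving out libraries. Intervals and floors (3 counts) cover counting error only.

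The 8 genes, the gene lists and the alternatives were chosen with earlier results of these data known. Beside the 8 genes and Xdh, genes of the lists were open to naming if among the 3 with the smallest p or farthest from the list's median in HOMO against WT, or a tested SLCO1A, SLC3, Mep1a, AKR1C or hormone receptor gene, together with the 2 genes of highest r for each of the 8. Not all are named. Others are named where a count of 6 or fewer called for it. A gene in 2 lists counts in both. Spread is the SD of log2 CPM pooled over WT and HET. Promoter sequences are from RefSeq, build GRCr8, and gene positions are those of the deposited table, on Rnor_6.0. Some genes of the lists are counted in them and not reported by name here.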

Additional observations from a re-analysis of the deposited data

Results flagged for a closer look

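Of 27 groups of 4 libraries examined (each of the 8 genes and Xdh in HOMO, HET and WT), 3 held a library whose distance to the next one divided by the group's whole range was above Dixon's 95% critical value. In independent groups chance gives about 1 such case in 20. Here 8 of the 9 genes were chosen partly by the spread of their counts and vary together. That rate therefore does not apply, and the cases are descriptions.

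HET replicate 4 stood above the other HET libraries for Slc7a12, at 131 CPM against 8.15 to 16.3 CPM, a gap of 0.934 of the range. The same library stood above the others for Cacng5, at 145 CPM against 9.32 to 25.6 CPM, a gap of 0.880 of the range. In both genes it was also above the highest WT library.

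The library labelled HOMO replicate 3 had 230 CPM of Xdh, against 57.6 to 61.7 CPM in the other HOMO libraries, a gap of 0.976 of the range. Its levels of the 8 genes were nevertheless below those of every HET and WT library.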

How the results depend on the processing

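Of 1562 values recomputed under alternatives, 1506 were classed as the same, 35 moved beyond a set limit and 4 reversed direction. A further 13 counts of called genes were lower and 4 higher by more than a set ratio. Counts within that ratio were classed as the same. So was every HET against WT estimate of the 8 genes, none being called, even where its sign turned. Genes called numbered 10558 to 12856 in HOMO against WT and 10450 to 12894 in HOMO against HET under every alternative, and 0 in HET against WT. Scaling by library totals alone shifted the median of all genes in HOMO against WT to 0.65, with the 8 genes then at -11.50 to -5.05. It turned the median of the Akr1c list to 0.04 and that of the Cacng list to 0.41, which was 2.13 with no filter. Leaving out single libraries gave -0.50 to 0.11 for the Cacng list.

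Without 1 library at a time, fold changes in HOMO against HET ran from -12.05 to -10.92 for Slco1a1, from -6.10 to -4.65 for Slco1a6, from -6.66 to -4.96 for Slc7a13, from -7.50 to -5.43 for Slc7a12 and from -9.47 to -7.37 for Cacng5. The pooled SD then ran from 0.79 to 2.10 for Slco1a1, 1.07 to 2.29 for Slco1a6, 1.22 to 2.71 for Slc7a13, 1.30 to 2.31 for Slc7a12, 0.86 to 1.94 for Mep1b, 0.22 to 0.40 for Kap, 1.23 to 2.70 for Cacng5 and 0.82 to 1.65 for Akr1c12l1. Without both WT replicate 2 and HET replicate 5, an alternative chosen after seeing the data, it was 0.64 for Slco1a1, 0.96 for Slco1a6, 1.05 for Slc7a13, 1.34 for Slc7a12, 0.64 for Mep1b, 1.13 for Cacng5 and 0.73 for Akr1c12l1. The higher call in the thick ascending limb list and that in the podocyte list (Ptger3 and Synpo) were each lost without single libraries, WT replicate 2 among them.

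Correlations of deviations from the group mean were -0.133 to 0.44 between samples of the same replicate number. Between samples of different numbers they were -0.404 to 0.441. The numbers were therefore not taken to pair the samples, although HOMO and HET replicate 1 had the 0.44. With a replicate block, 11265 genes were called in HOMO against WT, 10805 in HOMO against HET and 0 in HET against WT, and Slco1a1 in HOMO against HET was -12.64. With that block the estimates for Slco1a1, Cacng5 and Akr1c12l1 in HET against WT were 0.71, 0.78 and 0.05, none of them called. The causes of these changes were not tested. At 4 reads in all HOMO libraries, depth limits the size of the fall of Slco1a1.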
